A study of Mus musculus with 12 samples.

Results

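Selenoproteins carry selenocysteine, an amino acid that is inserted at UGA, a codon that elsewhere ends translation. The genes described here are 31 mouse genes listed by symbol, 22 that encode selenoproteins and 9 that make or insert selenocysteine. All 31 were among the 22467 transcripts of the deposited count table, with 1 canonical transcript per gene, matched by transcript identifier in the GENCODE annotation of GRCm38. Of these, 28 passed the filter on low values and were tested, namely 19 selenoprotein mRNAs and all 9 machinery genes.

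The data came from whole C57BL/6 mouse embryos at embryonic day (E) 8.5, 3 wild type and 3 homozygous for a loss-of-function allele of Rpl10a (Rpl10a LOF/LOF), made by CRISPR editing, which adds an extension to the N-terminus of ribosomal protein RPL10A/uL1. The allele is in the germline, so every cell of a mutant embryo carries it. Each embryo was lysed singly in cycloheximide. Ribosome profiling of the lysate gave a library of ribosome-protected footprints (RPF) and RNA-seq of the same lysate an RNA library, so 12 libraries were compared. RPF counts are footprints whose A site, the ribosomal site that receives the incoming tRNA, lay in the coding sequence (CDS) without its first 15 and last 5 codons. RNA counts are reads on the entire transcript.

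In mammals a hairpin in the 3′ untranslated region, the SECIS element, marks an mRNA whose UGA is to be read as selenocysteine. SECISBP2 binds this hairpin and the elongation factor EEFSEC brings selenocysteyl-tRNA to the ribosome, in competition with termination. The amino acid is built on its tRNA, from serine through the kinase PSTK and the synthase SEPSECS, with selenophosphate made by SEPHS2, which is a selenoprotein itself. Selenoproteins are best known as peroxidases and reductases, and the lipid peroxidase GPX4 and the thioredoxin reductases TXNRD1 and TXNRD2 are needed for mouse embryos to develop.

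The annotated coding sequences held 33 in-frame UGA codons in 23 genes, the 22 selenoprotein genes and Sephs2. Selenop had 10 of them, Dio2 had 2, and the other 21 genes had 1 each. The position decides which ribosomes the counts can see, so codons from both ends of the range are shown, read from the GENCODE transcript sequences of GRCm38 in the sense of the mRNA, 5′ to 3′, with 4 codons on each side and the selenocysteine UGA (TGA in DNA) in capitals.
Selenow UGA: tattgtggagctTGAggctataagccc
Sephs2 UGA: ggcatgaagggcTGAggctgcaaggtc
Selenop UGA 1: cttcaagccagcTGAtacttgtgtctt
Selenop UGA 9: cagaccaggaagTGAaaatgacattca
Gpx1 UGA: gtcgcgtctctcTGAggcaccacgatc
Gpx4 UGA: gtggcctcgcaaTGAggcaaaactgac
Selenoi UGA: ccaaactcagatTGActaggaatggaa
Selenok UGA: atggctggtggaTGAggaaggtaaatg
Txnrd1 UGA: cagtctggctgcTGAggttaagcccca
In Selenow the UGA was codon 13 of 88 (chr7:15920464-15920466, minus strand), so it lay in the left-out start and every counted codon followed it. In Txnrd1 it was codon 498 of 499 (chr10:82896037-82896039, plus strand), in the left-out end, so every counted codon preceded it and the ordinary stop stands in the same window. Selenok was alike, with UGA at codon 92 of 94 (chr14:29973440-29973442, plus strand). The UGA of Sephs2 was codon 63 of 452 (chr7:127273731-127273733, minus strand), that of Gpx1 codon 47 of 201 (chr9:108339451-108339453, plus strand) and that of Gpx4 codon 73 of 197 (chr10:80054737-80054739, plus strand). Selenoi carried its UGA at codon 388 of 398 (chr5:30266964-30266966, plus strand). In Selenop, UGA 1 stood alone at codon 59 of 380 (chr15:3274848-3274850, plus strand), while the other 9 lay between codons 259 and 377. The window of UGA 9 also holds UGA 10, in lower case.

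**Figure D1:**
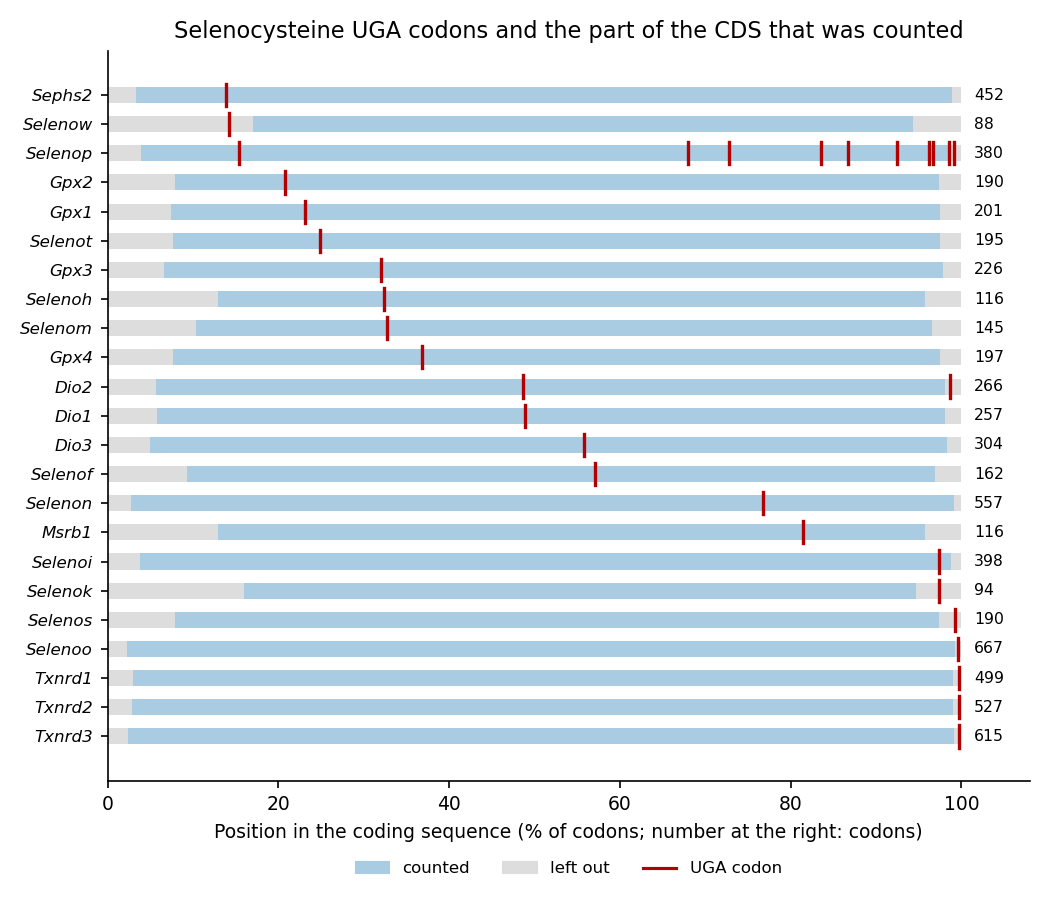
Position of each selenocysteine UGA (red tick) along the coding sequence, in percent of its codons, for 23 genes, with the stretch in which footprints were counted in blue and the ends left out in grey. Of 33 UGA codons, 24 lay in the counted stretch, 8 in the left-out end and 1, that of Selenow, in the left-out start.

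The base after the UGA was G at 14, C at 11, A at 6 and T at 2 of these 33 codons, or 42.4%, 33.3%, 18.2% and 6.06%. Among the 6328 tested transcripts that end in UGA, the shares were 37.5% G, 23.2% C, 24.1% A and 15.2% T. These genes seldom used UGA as their own stop. It ended 2 of the 23, Selenow and Sephs2, with 12 ending in UAA and 9 in UAG, while it ended 51.0% of the 12412 tested transcripts with an annotated stop. Of the other 8 machinery genes, 2 ended in UGA. Genes of a family share ancestry, so these counts are descriptions.

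Ribosome loading in wild-type embryos was described as the RPF/RNA density, that is, the normalised RPF level in CPM (reads scaled to a common library size) per kb of counted CDS over normalised RNA CPM per kb of transcript. It is given on the log2 scale with the median transcript of the same embryo at 0. Among 12573 transcripts the 10th and 90th percentiles were -1.53 and 1.17. The 19 selenoprotein mRNAs spread widely and past the upper end of this span, from -1.30 for Selenop to 2.65 for Selenok, with a median of -0.02, 10 below and 9 above the median transcript. Their SD over the 3 embryos was at most 0.22, and 25 of the 28 tested genes had all 3 wild-type embryos on the same side of the median transcript.

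Selenok, a small membrane protein of the endoplasmic reticulum, had the most footprints per RNA of the 28. Its ratios were 2.48, 2.83 and 2.65 in the 3 wild-type embryos, a mean of 2.65 ± 0.18 (SD, n = 3), at percentile 99.4, or 6.29 times the median transcript. Next came Selenoi, an ethanolamine phosphotransferase of membrane lipid synthesis, with 1.53, 1.44 and 1.47, at percentile 94.8 and 2.79 times the median transcript. Each lay apart from the next gene in the order in every embryo. Both have long 3′ untranslated regions on the transcript used, 5428 nt in Selenoi and 1183 nt in Selenok. Of the other tested genes, Selenot, Selenon, Txnrd1, Sephs1, Sepsecs and Secisbp2l have longer ones than Selenok. Their ratios ran from -1.22 to 0.50. RNA was scaled by the full annotated length. If shorter forms are made, this scaling raises the ratio, which was not tested. For Selenok, 6 annotated pseudogenes were not in the table, and reads shared with them cannot be told apart.

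Below these came Msrb1, a methionine sulfoxide reductase, at 0.88 ± 0.13, Gpx3, the secreted glutathione peroxidase, at 0.75 ± 0.08, and Selenos, a partner of protein quality control in the endoplasmic reticulum, at 0.64 ± 0.08 (SD, n = 3). The ranges of these 3 overlapped from each to the next. A middle group, Txnrd2 at 0.29, Txnrd3 at 0.26, Selenom at 0.25, Selenof at 0.20, Selenot at -0.02, Selenon at -0.12, Gpx4 at -0.22, Dio3 at -0.24 and Txnrd1 at -0.31, could not be ordered by neighbours, since each overlapped the next. Txnrd1, the cytosolic thioredoxin reductase, was the steadiest, with -0.31, -0.32 and -0.30. Selenoh at -0.60, Selenoo at -0.67 and Gpx1 at -0.84 were lower.

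At the low end stood Selenow, a small thiol oxidoreductase, with -1.16, -1.16 and -1.43, and Selenop, the plasma carrier of selenium, with -1.20, -1.22 and -1.47. The ranges of these genes overlapped. Selenop, at percentile 13.8, had 0.407 times the footprints per RNA of the median transcript. Low loading did not mean little RNA, for the wild-type RNA density was 80.6 CPM per kb for Selenop and 86.3 for Selenow, against 10.2 for the median transcript.

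Per length, the 19 tested selenoprotein mRNAs were abundant by their median. Their median RNA density was 38.6 CPM per kb, from 3.88 for Dio3 to 240.3 for Selenoh, against 10.2 over all transcripts. Txnrd2, Txnrd3, Dio3, Selenom and Selenoo lay below that 10.2. The median RPF density of the 19 was 97.5 CPM per kb, from 4.98 for Selenoo to 309.9 for Selenof, against 13.9 over all transcripts. The 3 selenoprotein mRNAs below the filter are not in these medians. The glutathione peroxidases Gpx1, Gpx3 and Gpx4 had RPF densities of 180.0, 258.2 and 242.0 CPM per kb, and Txnrd1 of 155.7. The mitochondrial Txnrd2 reached 14.6 and Txnrd3, known mostly from testis, 8.48.

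The machinery was less abundant than the selenoprotein mRNAs and, in 5 of 9 genes, lightly loaded. Its median RNA density was 10.5 CPM per kb and its median RPF density 18.99, against 10.2 and 13.9 over all transcripts. The median RPF/RNA density was -0.90, but this moved to -0.44 with Sephs2 counted among the selenoproteins and to -0.50 without scaling by length. The 9 values left a gap between -0.90 and 0.02. Eefsec (0.57 ± 0.11) and Sephs1 (0.50 ± 0.01) lay highest, followed by Scly (0.25 ± 0.27) and Sepsecs (0.02 ± 0.22; all SD, n = 3). The SECIS-binding Secisbp2 at -0.90, the kinase Pstk at -0.93, the tRNA-associated Trnau1ap at -1.09 and Secisbp2l, a relative of Secisbp2, at -1.22 followed. Sephs2 was the lowest of all 28, with -1.73, -1.55 and -1.74, at percentile 8.25 and 0.314 times the median transcript. Sephs1, its relative without a UGA, had 0.51, 0.49 and 0.50 in the same embryos.

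**Figure D2:**
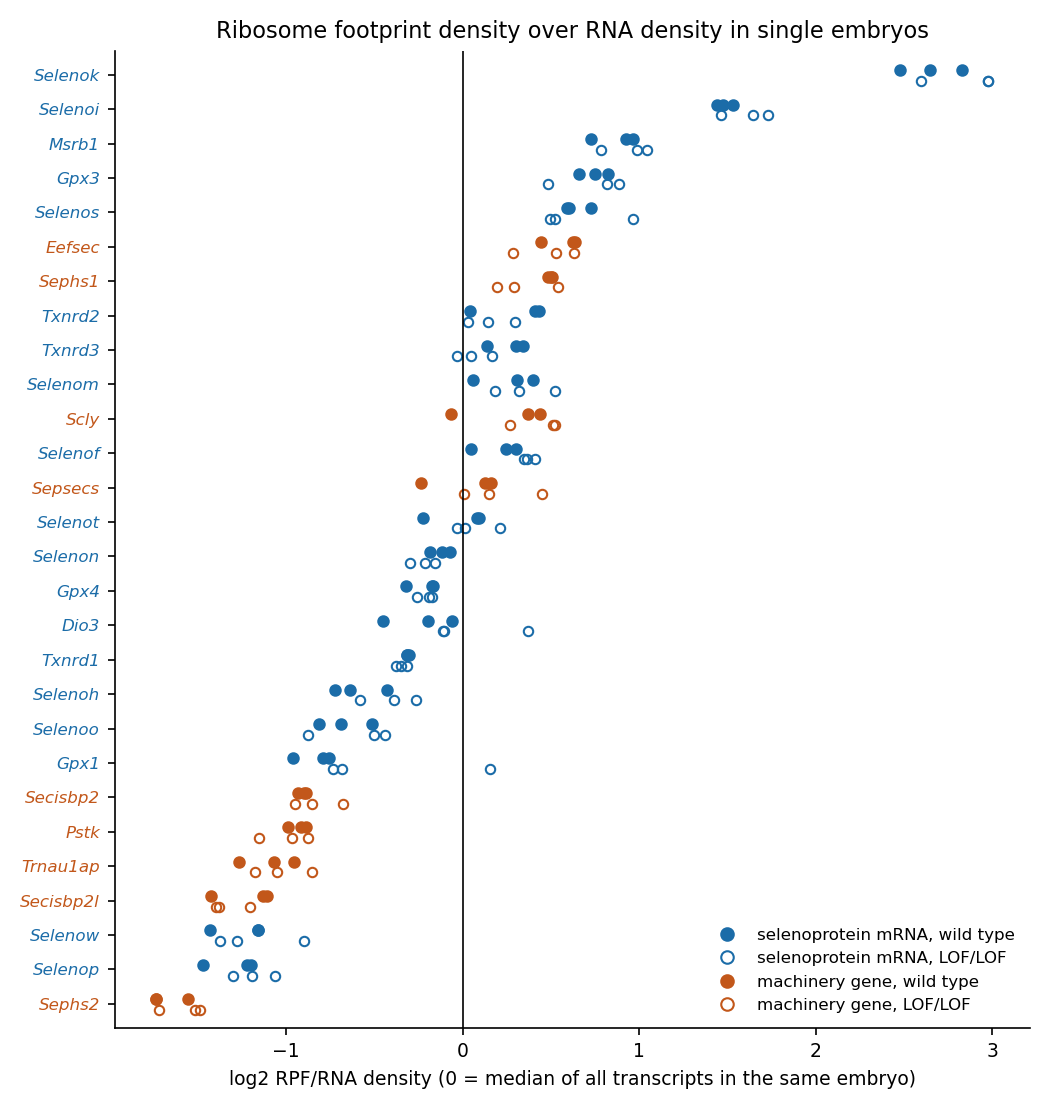
log2 RPF/RNA density of the 28 tested genes in each embryo (points; filled, wild type; open, LOF/LOF; blue, selenoprotein mRNAs; orange, machinery), with the median transcript of the same embryo at 0. Selenok and Selenoi lie to the right of all others and Sephs2 farthest to the left, and the open points of most genes lie among or beside the filled ones.

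The UGA position and the loading were set side by side. In 9 genes the first UGA lay before the midpoint of the counted codons (Gpx1, Gpx3, Gpx4, Selenoh, Selenom, Selenop, Selenot, Selenow and Sephs2). Their median wild-type ratio was -0.60, and 7 lay below the median transcript. In 11 genes it lay after the midpoint (Txnrd1, Txnrd2, Txnrd3, Dio3, Selenof, Selenoi, Selenok, Selenon, Selenoo, Selenos and Msrb1), with a median of 0.26 and 4 below the median transcript. The median of the late group exceeded that of the early group by 0.94, 0.57 and 1.07 in the 3 wild-type embryos. In the 3 LOF/LOF embryos it did so by 0.63, 0.22 and 0.73, least in replicate 2. The groups are fixed sets of genes, so the 6 embryos do not replicate this comparison between genes. The groups themselves overlapped, from -1.67 to 0.75 for early and from -0.67 to 2.65 for late UGA codons.

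Over these 20 genes the rank correlation (Spearman) of the wild-type ratio with the share of counted codons before the first UGA was 0.61. It was 0.58 without Selenok and Selenoi. In LOF/LOF replicates 1, 2 and 3 the correlation over the 20 genes was 0.51, 0.46 and 0.53. The 20 ratios share libraries, and several genes are related. The wild-type ratio correlated at -0.18 with the number of CDS codons, 0.03 with transcript length and -0.35 with RNA density. All transcripts gave -0.40, -0.26 and 0.07. The length of the 3′ untranslated region was not compared, and differences between these correlations were not tested. Counts per transcript do not show where on it the footprints lie, so ribosomes stalled at, or lost after, a UGA could not be looked for.

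**Figure D3:**
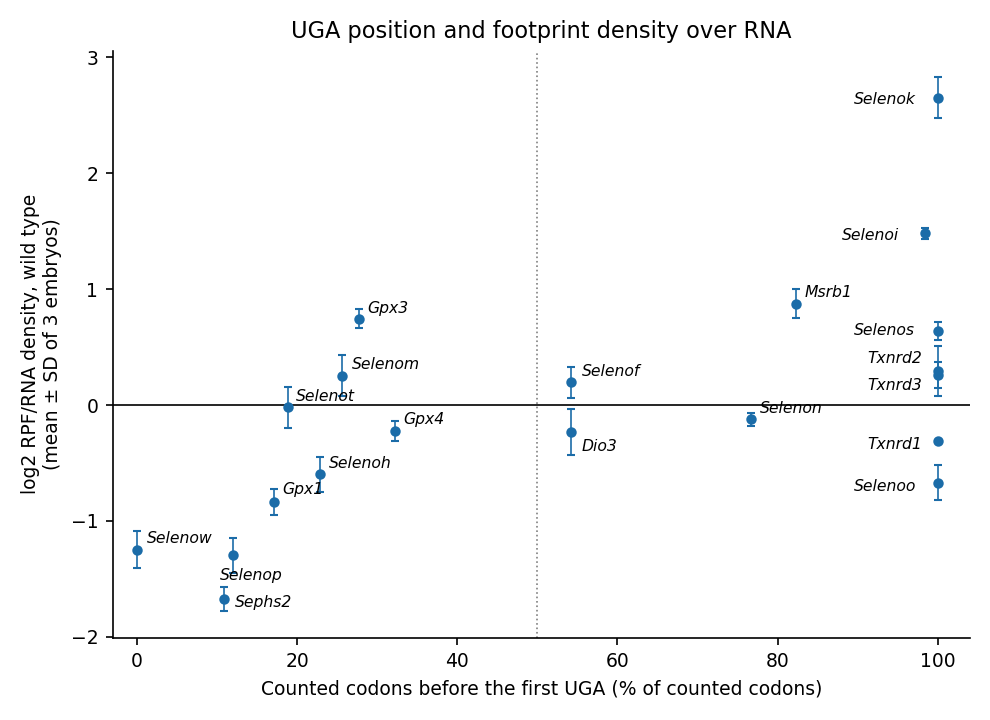
Wild-type log2 RPF/RNA density (mean ± SD of 3 embryos) of 20 genes with a UGA, against the share of counted codons that precede the first UGA, in percent; the dotted line marks the midpoint. Genes with an early UGA reach up to 0.75, and Sephs2, Selenop and Selenow lie lowest; genes with a late UGA reach from -0.67 (Selenoo) to 2.65 (Selenok).

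Cysteine-containing relatives gave a scale for these ratios. Gpx7 and Gpx8, glutathione peroxidase relatives without selenocysteine, had wild-type ratios of 0.50 ± 0.18 and 0.87 ± 0.13, above Gpx1 and Gpx4 and on either side of Gpx3. Msrb3 had 0.60 ± 0.04 (SD, n = 3), below Msrb1 at 0.88 ± 0.13. Msrb2, with 15 to 23 RPF counts per wild-type embryo, had 0.13, 1.07 and -0.30, a spread that took in Msrb1. A UGA gene was thus not always below its relatives.

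Before the genotypes were compared, the libraries were examined. RPF libraries held 7041357 to 10863499 counts and RNA libraries 9132521 to 26561843. Rpl10a itself, the targeted gene, fell in RPF by 0.64 ± 0.07 on the log2 scale (SE; FDR = 0.00689, edgeR quasi-likelihood test with Benjamini-Hochberg adjustment), from 1562, 1611 and 1679 CPM in the wild type to 1125, 1040 and 939.7. The change was -0.65 (FDR = 0.104, edgeR) without wild-type replicate 2 and was called in the other 13 alternative fits. Its RNA fell too, from 849.0, 788.6 and 869.7 CPM to 695.3, 695.4 and 752.7, a log2 change of -0.23 ± 0.06 (SE; FDR = 0.0678, edgeR), but this call was lost in 5 of 14 alternative fits, with the Y-linked covariate and without wild-type replicates 1 or 3 or LOF/LOF replicates 1 or 2. The RPF change beyond RNA was -0.42 (FDR = 0.974, edgeR interaction). The 8 embryo lineage markers, such as Sox2 and T, were present in every library. None was called by edgeR, DESeq2 or limma-voom, 2 had an unadjusted p under 0.05 in each kind of library, and 3 were called in RPF with surrogate variables. LOF/LOF replicate 2 stood apart from the other LOF/LOF embryos on the first principal component of RPF, and without it the number of called transcripts rose from 276 to 1452. Reads of 4 Y-linked genes summed to 163 to 181.3 RPF CPM in the wild-type embryos and 153.3 in LOF/LOF replicate 2. In LOF/LOF replicates 1 and 3 they summed to 9.33 and 0.380, so sex and genotype were partly confounded. With these reads as a covariate, a genotype change rests largely on LOF/LOF replicate 2, the only LOF/LOF embryo near wild type in them. The 12 visceral endoderm markers summed to 6579 to 8679 RPF CPM in wild type and 2379 to 4996 in LOF/LOF embryos. The 10 primitive erythroid markers summed to 850.2 to 2856 and 3564 to 5854. In whole embryos, fewer cells of a type and less RNA per cell cannot be told apart.

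Most selenoprotein mRNAs differed little between Rpl10a LOF/LOF and wild-type embryos. A log2 fold change of LOF/LOF over wild type within 0.25 of 0 was found for 17 of 19 in RPF and 18 of 19 in RNA. The median change was 0.02 in RPF and -0.04 in RNA, beside 0.00 and -0.00 over all 12576 transcripts tested, of which 90% lay between -0.45 and 0.44 in RPF and between -0.41 and 0.27 in RNA. At a false discovery rate (FDR) under 0.1 by the edgeR quasi-likelihood test with Benjamini-Hochberg adjustment over all transcripts, 1 of the 19, Selenop, was called in RPF and the same gene in RNA. Over all transcripts, 2.19% were called in RPF and 5.02% in RNA, and 1.15% and 3.25% were called lower in LOF/LOF embryos.

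Selenop (chr15:3270767-3280508, plus strand, 5 exons) fell at both levels. Its RPF level was 71.4, 59.0 and 49.8 CPM in the wild-type embryos and 39.8, 39.3 and 28.3 CPM in the LOF/LOF embryos. Every mutant embryo lay below every wild-type embryo, and the mean fell from 60.1 ± 10.8 to 35.8 ± 6.48 CPM (SD, n = 3), 59.6% of wild type. The log2 change was -0.76 ± 0.15 (SE; FDR = 0.0562, edgeR quasi-likelihood test with Benjamini-Hochberg adjustment). Its RNA level was 182.0, 151.9 and 153.1 CPM against 91.0, 107.3 and 70.4 CPM, again without overlap, and fell to 55.2% of wild type, a log2 change of -0.83 ± 0.12 (SE; FDR = 0.0119, same test). The exact permutation test over embryos gave a two-sided p of 0.1 at both levels, the smallest that 3 against 3 allows.

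The falls of Selenop in RPF and RNA were not told apart by the test. The change in RPF beyond that in RNA was 0.08 ± 0.23 on the log2 scale (SE; FDR = 1.0, edgeR interaction of genotype and library), and the RPF/RNA densities of the LOF/LOF embryos, -1.06, -1.30 and -1.19, overlapped the wild-type values. The RPF call was lost without wild-type replicate 1 (FDR = 0.282), wild-type replicate 2 (FDR = 0.212) or LOF/LOF replicate 3 (FDR = 0.174, all edgeR), with log2 changes of -0.61, -0.77 and -0.61. With Y-linked reads as a covariate the changes were -0.52 in RPF (FDR = 0.513) and -0.55 in RNA (FDR = 0.117), and neither was called by edgeR. Visceral endoderm markers fell in the same embryos, 9 of 12 called lower in RPF and 12 of 12 in RNA, with median log2 changes of -1.104 and -1.28 and none at 0 counts in any library. Their part in the result was not tested.

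Gpx1 (chr9:108339054-108340343, plus strand, 2 exons), the cytosolic glutathione peroxidase that reduces hydrogen peroxide, had the largest RPF increase of the members and was not called. Its RPF level was 101.1, 92.8 and 99.3 CPM in wild type and 117.3, 226.2 and 118.7 CPM in LOF/LOF embryos. The genotypes did not overlap, but LOF/LOF replicate 2 was far above the other 5 embryos. The log2 change was 0.66 ± 0.21 (SE; FDR = 0.187, edgeR quasi-likelihood test with Benjamini-Hochberg adjustment). Without that embryo it was smaller, 0.27 ± 0.07, and called (FDR = 0.0372, edgeR). With Y-linked reads as a covariate it was 1.14 and called (FDR = 0.0125, edgeR), a value that rests largely on that same embryo. It was also called at 0.73 by limma-voom with surrogate variables (FDR = 9.39e-06) and at 0.65 by edgeR with no filter on low values (FDR = 0.0407). Over all transcripts these settings called 1306 and 437 in RPF, against 276 in the main fit. With surrogate variables the SE of Gpx1 was 0.05. RNA levels of 200.6, 187.7 and 227.5 CPM in wild type and 218.3, 238.9 and 227.2 CPM in LOF/LOF embryos overlapped, with a log2 change of 0.15 ± 0.07 (SE; FDR = 0.306, edgeR), which was 0.23 and called without wild-type replicate 3 (FDR = 0.0873, edgeR). The RPF/RNA density was -0.76, -0.79 and -0.96 in wild type and -0.68, 0.15 and -0.73 in LOF/LOF embryos, so replicate 2 alone lay above the median transcript. That embryo also had the highest sum of primitive erythroid markers, 5854 RPF CPM. All 10 of these markers had positive log2 changes in both libraries, with 4 called in RPF and 2 in RNA, medians of 1.31 and 1.08 and none at 0 counts. Their part in the result was not tested.

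**Figure D4:**
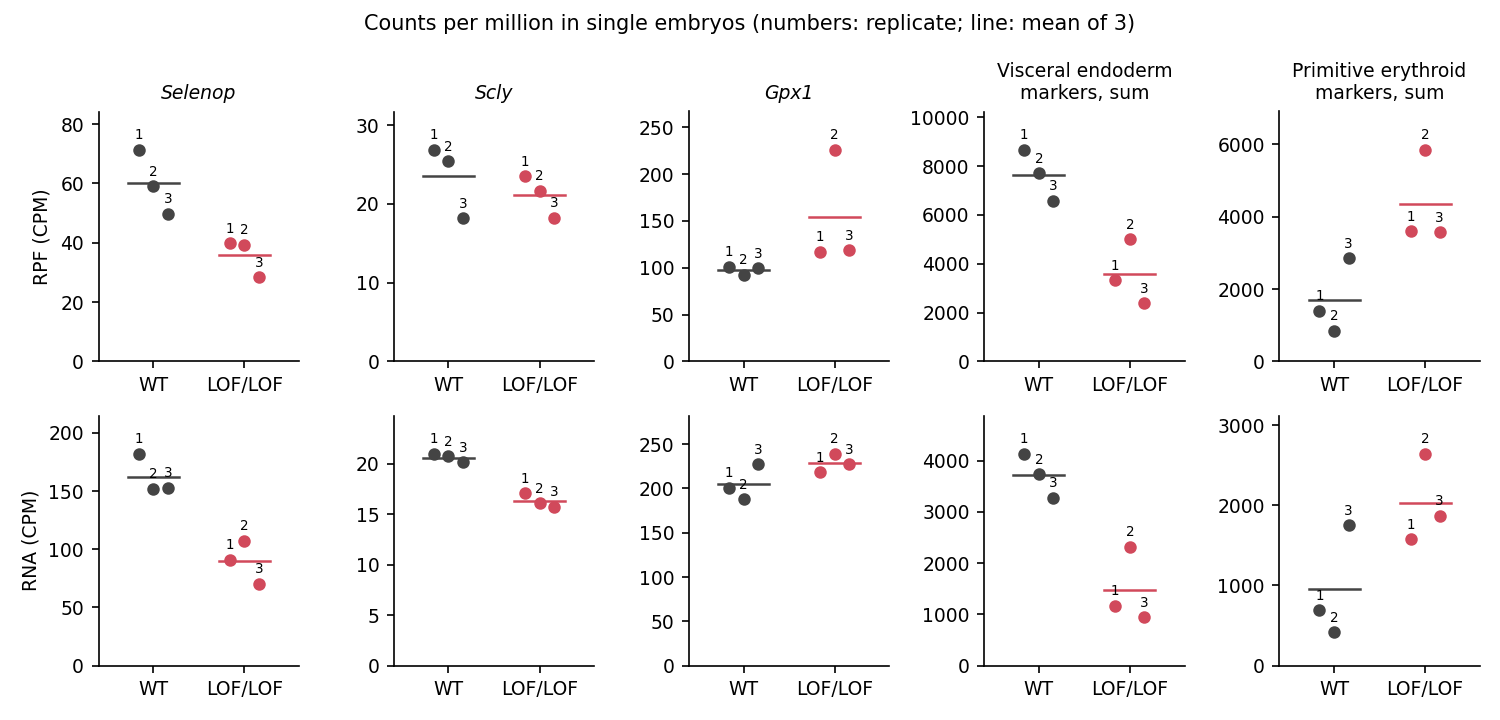
Normalised level in CPM in each embryo (points, numbered by replicate; line, mean of 3) for Selenop, Scly and Gpx1 and for the summed visceral endoderm and primitive erythroid markers, RPF above and RNA below. Selenop and the visceral endoderm sum are lower in all 3 LOF/LOF embryos in both libraries, and Gpx1 RPF reaches 226.2 CPM in LOF/LOF replicate 2.

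None of the other peroxidases and reductases was called. Gpx4, the peroxidase of membrane lipids, had 130.2, 124.9 and 130.4 RPF CPM in wild type and 115.7, 120.2 and 132.0 in LOF/LOF embryos, an overlap, with a log2 change of -0.07 ± 0.07 (SE; FDR = 0.752, edgeR). Its RNA log2 change was -0.10 ± 0.07. Txnrd1 had 226.2, 220.7 and 224.2 RPF CPM against 230.7, 217.7 and 211.4, and its RNA had 386.8, 377.0 and 381.3 CPM against 399.4, 373.1 and 370.9. Both libraries overlapped, with log2 changes of -0.03 ± 0.06 in RPF and -0.00 ± 0.05 in RNA, the smallest errors of the group in RPF. Txnrd3 had, after Selenop, the largest decrease in RPF, from 15.0, 14.3 and 16.2 CPM to 16.03, 12.7 and 11.3 CPM, which overlapped, at -0.20 ± 0.14 (SE; FDR = 0.593, edgeR), with an RNA change of 0.00. Gpx3 varied more among the LOF/LOF embryos, with 136.6, 170.2 and 149.8 RPF CPM against 153.8, 162.1 and 162.8 in wild type, which overlapped, and had log2 changes of -0.07 in RPF and RNA. Txnrd2 had an RPF change of 0.08.

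Among proteins of the endoplasmic reticulum, Selenok had 35.9, 43.1 and 38.5 RPF CPM in wild type and 36.4, 43.4 and 34.4 CPM in LOF/LOF embryos. Its RNA was 29.0, 27.2 and 27.6 CPM against 20.6, 24.8 and 25.2 CPM, without overlap, at a log2 change of -0.25 ± 0.09 (SE; FDR = 0.202, edgeR), so it was not called. Selenos RNA was likewise lower in each LOF/LOF embryo, 48.0, 46.0 and 44.0 CPM against 38.2, 41.7 and 39.1 CPM, at -0.21 ± 0.07 (SE; FDR = 0.149, edgeR). Its RPF, 52.5, 55.0 and 47.5 CPM against 39.2, 58.5 and 41.3 CPM, overlapped through LOF/LOF replicate 2, at -0.15 ± 0.14 (SE; FDR = 0.676, edgeR). Without that embryo it was -0.36 and called (FDR = 0.0410, edgeR), and with the Y-linked covariate it was 0.13 (FDR = 0.881, edgeR). Selenoi had 111.6, 107.6 and 112.4 RPF CPM against 131.2, 106.1 and 120.3, and 137.7, 141.1 and 144.8 RNA CPM against 148.1, 137.6 and 126.9, with overlap in both. Selenof, Selenom, Selenon and Selenot had RPF changes between -0.01 and 0.14. The small Selenow is not one of this group. It had 13.4, 12.2 and 11.8 RPF CPM against 13.99, 11.6 and 12.7, and 64.3, 58.1 and 68.1 RNA CPM against 55.3, 64.8 and 65.2, which overlapped, at 0.03 ± 0.13 and -0.04 ± 0.08.

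The rest of the selenoproteins were a nuclear protein, mitochondrial and methionine sulfoxide enzymes and the deiodinases of thyroid hormone. Selenoh RPF had a log2 change of 0.22 ± 0.10 (SE; FDR = 0.348, edgeR) and an RNA value of 0.01. Selenoo, Msrb1 and Dio3 had RPF changes of -0.05, 0.03 and 0.05, and Dio3, with a mean of 4.78 wild-type RPF CPM, had the largest error, 0.23. The RPF ranges of the genotypes did not overlap for 2 of 19 selenoprotein mRNAs, Selenop and Gpx1, and the RNA ranges for 5, Selenop, Selenok, Selenos, Selenon and Txnrd2. Over all transcripts tested the shares without overlap were 19.4% in RPF and 22.8% in RNA, so the count was near the background in RNA and under it in RPF.

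Below the filter were 3 selenoproteins. Dio1 had 0 RPF counts in all 6 libraries, which allows up to 3 counts or 0.274 to 0.437 CPM per library (counting error only), and at most 1 RNA count. Dio2 had 0 to 3 RPF and 3 to 16 RNA counts per library, and Gpx2, the glutathione peroxidase known from the gut, 0 to 5 and 7 to 25. No genotype difference could be detected at these counts.

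No machinery gene was called in RPF by the edgeR quasi-likelihood test, and none had an unadjusted p under 0.05 or was called by DESeq2, limma-voom or limma-voom with surrogate variables. All 9 log2 changes in RPF lay between -0.16 and 0.22, with a median of 0.03, and the ranges of the genotypes overlapped for all 9. In RNA 1 of 9, Scly, was called lower, where 3.25% of all transcripts were, and the median was 0.01.

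Scly (chr1:91298338-91321075, plus strand, 12 exons), the lyase that recovers selenium from selenocysteine, had 20.99, 20.8 and 20.1 RNA CPM in the wild-type embryos and 17.1, 16.1 and 15.8 CPM in the LOF/LOF embryos. The groups did not overlap, and LOF/LOF embryos had 79.1% of the wild-type level, a log2 change of -0.33 ± 0.08 (SE; FDR = 0.0515, edgeR quasi-likelihood test with Benjamini-Hochberg adjustment). Its RPF, 26.9, 25.4 and 18.1 CPM against 23.5, 21.6 and 18.3, overlapped, at -0.16 ± 0.16 (SE; FDR = 0.706, edgeR). The change beyond RNA was 0.17 ± 0.18 (SE; FDR = 1.0, edgeR interaction). The RNA call was lost without wild-type replicate 1 (FDR = 0.195) or 2 (FDR = 0.136), without LOF/LOF replicate 2 (FDR = 0.113) or 3 (FDR = 0.111), with Y-linked reads as a covariate (FDR = 0.421), and with DESeq2 (FDR = 0.143), all at log2 changes near the main one, from -0.34 to -0.31. The visceral endoderm markers, 12 of 12 called lower in RNA, fell in the same embryos, and their part in the result was not tested.

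Of the insertion factors, Secisbp2 had the largest increase in RPF among the machinery, with 17.4, 18.96 and 19.9 CPM in wild type and 18.5, 22.0 and 24.5 CPM in LOF/LOF embryos. The ranges overlapped, and the log2 change was 0.22 ± 0.13 (SE; FDR = 0.482, edgeR), with 0.10 ± 0.08 in RNA. Its RNA was 26.1, 27.5 and 29.3 CPM against 27.8, 31.3 and 30.3 CPM. Eefsec had 44.0, 42.3 and 46.9 RPF CPM against 45.9, 52.4 and 44.3, which overlapped, and 26.9, 29.2 and 28.5 RNA CPM against 29.6, 31.9 and 33.7, which did not, at 0.10 ± 0.09 in RPF and 0.16 ± 0.08 in RNA (SE; FDR = 0.342 in RNA, edgeR).

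Of the enzymes that build selenocysteine, Sepsecs had 15.0, 11.7 and 14.3 RPF CPM against 15.0, 12.9 and 14.6, and 28.9, 29.5 and 28.2 RNA CPM against 28.8, 27.6 and 22.5. Both libraries overlapped, with log2 changes of 0.04 ± 0.13 and -0.12 ± 0.09. Sephs2 had 43.8, 46.8 and 40.9 RPF CPM against 41.3, 47.7 and 44.6, and 145.5, 136.7 and 136.1 RNA CPM against 134.1, 136.2 and 122.9. These overlapped too, at 0.03 ± 0.09 and -0.08 ± 0.05. Sephs1 RPF was 108.4, 109.2 and 109.5 CPM in wild type and 90.8, 110.9 and 92.4 CPM in LOF/LOF embryos, at -0.15 ± 0.08 (SE; FDR = 0.470, edgeR). It was called lower only when LOF/LOF replicate 2 was left out. Pstk, Secisbp2l and Trnau1ap had RPF changes of 0.03, 0.03 and 0.07. Of the 9 machinery genes, 2, Scly and Eefsec, had RNA ranges that did not overlap, a share near the 22.8% over all transcripts.

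The change of RPF beyond that of RNA, the translation efficiency (TE), was called for no member. The same edgeR interaction test called 0 of 12576 transcripts (0%), with 559 at an unadjusted p under 0.05 and a lowest FDR of 0.974. DESeq2 called 4, limma-voom with and without surrogate variables 0, and edgeR without LOF/LOF replicate 2 called 23. No member had an unadjusted p under 0.05. Among the selenoprotein mRNAs 14 had positive and 5 negative values, with a median of 0.07, and among the machinery genes 5 and 4, with a median of 0.06, beside 0.01 over all transcripts. With an embryo left out, the selenoprotein median ran from 0.018 (without LOF/LOF replicate 1) to 0.115 (without LOF/LOF replicate 3). The highest value was that of Gpx1, 0.50 ± 0.25, and the lowest that of Txnrd3, -0.20 ± 0.18 (SE). Standard errors reached 0.36, in Dio3.

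**Figure D5:**
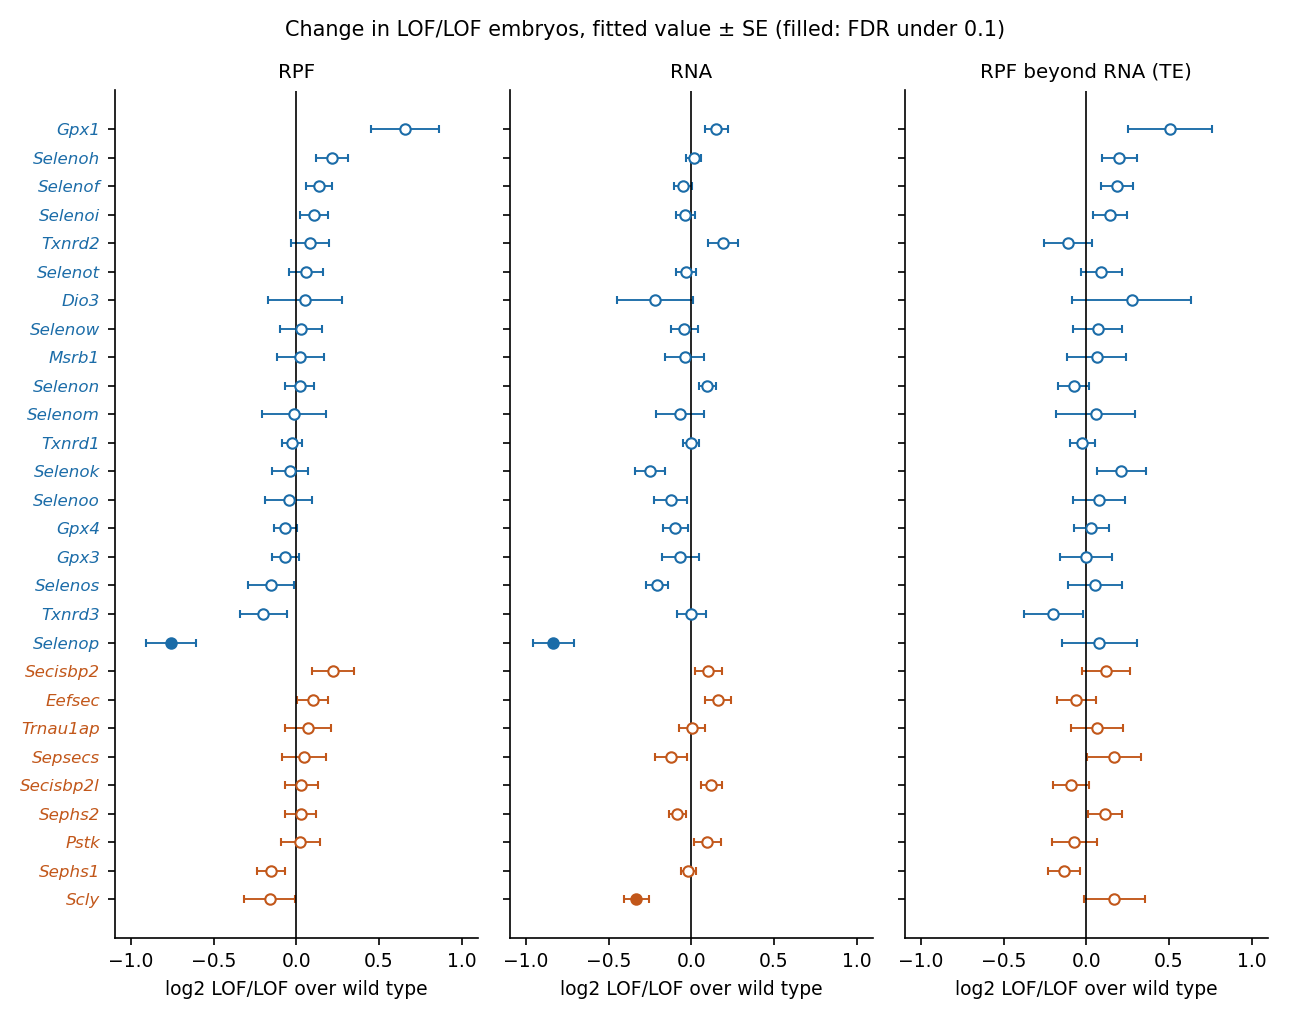
log2 fold change (fitted value ± SE) of LOF/LOF over wild type in RPF, RNA and RPF beyond RNA for 19 selenoprotein mRNAs (blue) and 9 machinery genes (orange), from 3 embryos each; filled points have an FDR under 0.1. The filled points are Selenop in RPF and RNA and Scly in RNA, and Gpx1 has the highest RPF value with a wide error.

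Genes that surround the pathway were counted in the same fits. Of 17 accessory genes of UGA recoding and SECIS-bearing mRNAs, such as the nonsense-decay helicase Upf1, the SECIS-binding Rpl30 and Ncl, and the release factor Etf1, none was called in RPF or had an unadjusted p under 0.05 there, though Ncl was called higher with surrogate variables, and Upf1 was called higher in RNA, at 0.20 ± 0.05 (SE; FDR = 0.0669, edgeR). The Upf1 call held in 6 of 14 alternative fits. It was lost with surrogate variables (FDR = 0.115, limma-voom), with the Y-linked covariate (FDR = 0.52, edgeR) and without any embryo other than wild-type replicate 2 (FDR = 0.113 to 0.276, edgeR). The medians of the list were -0.01 and 0.05. Of the 2 receptors that take up selenoprotein P, 1 was called. Lrp2 (megalin) was called lower, with 823.8, 791.2 and 716.3 RPF CPM in wild type and 578.9, 625.9 and 578.7 CPM in LOF/LOF embryos, a log2 change of -0.39 ± 0.07 (SE; FDR = 0.0437, edgeR) and -0.32 ± 0.08 in RNA (FDR = 0.0690). It was no longer called in either library with the Y-linked covariate, without wild-type replicates 1 or 2 or without LOF/LOF replicate 3, nor in RNA without LOF/LOF replicate 1, at log2 changes of -0.38 to -0.32 in RPF and -0.30 to -0.20 in RNA. The visceral endoderm markers, among them Cubn and Amn, whose products form an uptake receptor that works with megalin, were lower in the same embryos, 9 of 12 called in RPF and 12 of 12 in RNA, and their part in the result was not tested. Lrp8 was not called, at -0.26 ± 0.18 and -0.30 ± 0.10.

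Of 22 thiol redox partners and cysteine-containing relatives, Glrx, a glutaredoxin, was called lower, from 27.2, 23.4 and 23.7 to 15.2, 18.7 and 13.7 RPF CPM, at -0.65 ± 0.13 in RPF (SE; FDR = 0.0572, edgeR) and -0.70 ± 0.09 in RNA (FDR = 0.00771). The RPF call was lost with the Y-linked covariate and without any embryo other than LOF/LOF replicate 2, at -0.69 to -0.40, and the RNA call with the covariate alone (FDR = 0.115, edgeR). The visceral endoderm markers were lower in these embryos too, and their part in the result was not tested. The medians of the 22 were -0.06 and 0.01. Of 14 tested targets of the oxidative stress factor NRF2, which include Nqo1 and Slc7a11, none was called in either library by edgeR, DESeq2 or limma-voom, with medians of 0.00 in RPF and -0.09 in RNA. In RPF, Slc7a11 alone reached an unadjusted p under 0.05, while Gclc was called lower with surrogate variables. These 2 genes, and Ncl, are named after their values were seen. Of 3 decidua markers, which would mark maternal tissue, none was called or had an unadjusted p under 0.05, and their RPF sum varied within each genotype, from 119.6 to 288.5 CPM in wild type and from 76.0 to 321.7 CPM in LOF/LOF embryos.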

How the data were processed

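Ribosome profiling (RPF) and RNA-seq libraries of 3 wild-type and 3 Rpl10a LOF/LOF E8.5 embryos were analysed, grouped by the submitters' sample titles. The deposited values were whole-number counts per transcript. The authors trimmed reads, filtered out structural RNA with bowtie2, mapped what was left to canonical GENCODE transcripts of GRCm38/mm10, collapsed PCR duplicates by molecular identifier (UMI-tools) and counted A sites in the CDS (RPF) or reads over full transcripts (RNA). Duplicates do not inflate these counts. Footprints near start and stop codons were not in the table.

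Transcripts above 0.75 CPM in 3 or more RPF libraries (12576) were kept, TMM-normalised separately per library kind, and tested at an FDR of 0.1 with the edgeR 4.0.16 quasi-likelihood test (R 4.3.3), genotype as the only factor, and Benjamini-Hochberg adjustment over all of them. The filter, the normalization and the threshold follow the authors' methods. The test does not, since the authors used voom and limma with sva and locfdr, whose design is not given in the sources used here. TE was the interaction of genotype and library over 12 libraries. Gene and UGA annotation came from a GENCODE release of GRCm38 next to the authors' own, in which 21987 transcript identifiers matched with the same version, 477 with another version and 3 not at all.

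The members, gene lists and tests were chosen with earlier results of these data known. Named genes were the called members, the 2 with the largest rise and the 2 with the largest fall in RPF, the 2 highest and 2 lowest in wild-type RPF/RNA density, and Gpx1, Gpx4, Txnrd1, Selenop, Selenow, Sephs2, Secisbp2, Eefsec and Sepsecs. Alternatives were DESeq2 1.42.0, limma-voom (limma 3.58.1), sva 3.50.0 with 2 surrogate variables, RLE size factors, other filters, a covariate from Y-linked reads, blocks for replicate number and embryo, and each embryo left out. Deviations of RPF and RNA from the same embryo correlated at 0.191 to 0.403, since the libraries share the embryo, and with the embryo as a block the interaction test also called 0 transcripts. Counts were also simulated for 12576 transcripts, with independent libraries and a change in RPF alone of transcripts above a minimum mean count. The RPF test recovered 86 of 100 transcripts given a log2 change of 1 and 67 of 100 given 0.5, and the TE test 79 and 44. Recovery in RNA was not assessed. Effects shared within an embryo, sex and an outlying embryo were not simulated, so recovery in the data may differ.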

Additional observations from a re-analysis of the deposited data

How the results depend on the processing

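Over 15 alternative fits, other scalings of the RPF/RNA density and a move of Sephs2 between the lists, 157 of 198 recomputed counts and medians kept their sign and stayed within the replicate spread, or within 1.5 times for counts, whichever genes they count. No called value changed sign. Small medians changed sign 10 times, 1 of them the selenoprotein density median, 5 the selenoprotein RPF median of 0.019, which was -0.001 with sva, -0.025 with no filter and -0.02 to 0.029 with an embryo left out, and 2 the machinery RNA median, which was -0.007 with the Y-linked covariate. Of single uncalled members, 39 values changed sign. Of the selenoprotein mRNAs, 3 were called in RPF with sva (Gpx1, Selenoh, Selenop) and 2 with no filter (Gpx1, Selenop) in place of 1, and from 0 to 3 (Gpx1, Selenop, Selenos, without LOF/LOF replicate 2) with an embryo left out. With the Y-linked covariate the 1 called was Gpx1, not Selenop. In RNA 0 were called with the Y-linked covariate and 1 to 2 with an embryo left out (Gpx1 and Selenop, without wild-type replicate 3), and the median RNA change ran from -0.082 to -0.02. For the machinery, 0 genes were called in RNA by DESeq2 and with the Y-linked covariate, and 0 to 1 with an embryo left out; in RPF the latter gave 0 to 1, with a median of -0.013 to 0.068. The machinery median in RNA was 0.051 with Sephs2 moved to the selenoproteins and -0.005 to 0.054 with an embryo left out. In TE it was 0.105 with sva, 0.003 with the covariate, 0.002 with Sephs2 moved and -0.006 to 0.073 with an embryo left out. The median wild-type RPF/RNA density of selenoprotein mRNAs was -0.099 per whole CDS and -0.071 to 0.085 with an embryo left out. For the machinery it was -0.864 per whole CDS, -0.503 without length scaling, -0.941 with a stricter filter, -0.444 with Sephs2 moved and -0.914 to -0.892 with an embryo left out. The cause was not tested, except that an embryo left out leaves 2 in its group.

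Over all transcripts, calls in RPF numbered 276, but 1306 with sva, 437 with no filter, 22 with the covariate and 4 (without wild-type replicate 2) to 1452 (without LOF/LOF replicate 2). RNA calls numbered 631, but 35 with the covariate and 98 to 594 with an embryo left out, and TE calls 0, but 4 by DESeq2 and up to 23 without LOF/LOF replicate 2. Of the surrounding lists, thiol redox partners had 6 RPF calls with sva in place of 1, visceral endoderm markers 4 by DESeq2 in place of 9, and primitive erythroid markers 7 by limma-voom and 10 with sva in place of 4, and 5 RNA calls by limma-voom in place of 2. Replicate numbers belong to different embryos in the genotypes, and deviations of same-numbered embryos correlated at -0.0852 to 0.0172 in RPF and -0.1 to 0.0819 in RNA, so they do not pair. A replicate block gave 313 RPF, 528 RNA and 0 TE calls and changed no call of a member, but Upf1 was not called in RNA (FDR = 0.108, edgeR); Selenop was then -0.75 in RPF. Depth limits Dio1, Dio2 and Gpx2, which fell below the filter and were not called without it.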
